A study of Mus musculus with 14 samples.

Results

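The subject is the binding of C/EBPβ in mesoderm (MES) and in the hemangioblast (HB), the precursor that can form blood and endothelium. Its members were all 1892 peaks of 2 lists, 1177 from MES and 715 from HB, out of 158488 peaks in the 14 lists of the series. Peaks of the lists that overlapped by at least 1 bp were called shared, which gave 803 MES only peaks, 374 shared peaks and 341 HB only peaks. Both populations came from 1 mouse embryonic stem (ES) cell line of strain 129 that carries a GFP reporter at Brachyury, differentiated as embryoid bodies. MES cells were sorted as Bry.GFP+ and FLK1-, and HB cells as Bry.GFP+ and FLK1+. Chromatin immunoprecipitation with sequencing (ChIP-seq) used the same Santa Cruz antibody in both. The quality control of the paper lists no PCR target and no fold enrichment for C/EBPβ in MES or in HB. The paper explains that enrichment was not seen in every sample, and that such samples were still sequenced because the antibodies were trusted. Each population gave 1 list of positions with no height or read count per peak, so the differences here carry no replicate error, and the sorted cell types could not be checked against marker genes. All peaks were 400 bp wide, and positions are given in mouse build mm10 (GRCm38).

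C/EBPβ belongs to the basic leucine zipper (bZIP) proteins, which grip DNA as dimers. As a homodimer, or with another C/EBP protein, it recognises a near-palindromic site. With ATF4 or a related protein it recognises a hybrid site, joining parts of a C/EBP and an ATF site, that lies in promoters of genes switched on when amino acids are short. In the blood system C/EBPβ is best known for its part in macrophages and granulocytes.

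The following stretches show sites of these kinds close to the start of named genes. They were taken from peaks of listed genes (the gene lists are introduced with the genes below) within 2 kb of a transcription start site (TSS), with the matches nearest the peak centre first, up to 4 a class. Each is 80 bases of the plus strand of the GRCm38.p6 reference, with the match in capitals. In MES only peaks the sites lay at chr2:119351013-119351092, 192 bp upstream of the TSS of Chac1, at chr3:95882025-95882104 near Ciart, at chr14:57745498-57745577 near Lats2 and at chr4:129189870-129189949 near Yars.
Chac1: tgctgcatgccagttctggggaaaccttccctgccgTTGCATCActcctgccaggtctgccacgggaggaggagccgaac
Ciart: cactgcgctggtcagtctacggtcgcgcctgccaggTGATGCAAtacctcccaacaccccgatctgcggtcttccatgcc
Lats2: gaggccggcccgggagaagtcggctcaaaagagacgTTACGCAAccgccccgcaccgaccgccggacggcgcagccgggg
Yars: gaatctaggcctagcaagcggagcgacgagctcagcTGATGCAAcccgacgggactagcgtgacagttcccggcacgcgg
In 3 of these 4, the capitals are the hybrid site, read on one strand or the other.

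In shared peaks, the sites chosen by the same rule lay at chr4:115056975-115057054 in Tal1, at chr2:92434560-92434639 near Cry2, at chr5:147727133-147727212 near Flt1 and at chr13:52981644-52981723 near Nfil3.
Tal1: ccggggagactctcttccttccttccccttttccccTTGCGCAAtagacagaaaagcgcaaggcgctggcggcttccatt
Cry2: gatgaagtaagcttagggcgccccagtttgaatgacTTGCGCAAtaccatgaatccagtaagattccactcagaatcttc
Flt1: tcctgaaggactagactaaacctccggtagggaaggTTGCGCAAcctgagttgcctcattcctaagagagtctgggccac
Nfil3: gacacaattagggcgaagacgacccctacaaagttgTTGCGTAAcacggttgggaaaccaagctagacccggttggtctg
All 4 are C/EBP sites, 3 of them with the fully palindromic core, and each lay within 4 bp of the centre of its MES peak.

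In HB only peaks, Farsb was the sole listed gene that met the rule, at chr1:78488546-78488625. The Rcc2 site, at chr4:140699687-140699766, and the Spred1 site, at chr2:117120063-117120142, were added after their values were seen, from the HB only peaks that lay within 2 kb of a coding TSS and away from tRNA genes, where their matches lay nearest the centre.
Farsb: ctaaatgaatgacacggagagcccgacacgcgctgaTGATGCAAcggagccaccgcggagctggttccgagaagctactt
Rcc2: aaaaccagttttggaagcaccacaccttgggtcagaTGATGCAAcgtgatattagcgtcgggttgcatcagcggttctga
Spred1: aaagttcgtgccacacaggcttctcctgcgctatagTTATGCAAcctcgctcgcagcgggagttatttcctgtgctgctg
The Farsb match lay 41 bp from the peak centre, and those of Rcc2 and Spred1 lay 0 and 5 bp from it. The Rcc2 stretch also holds a hybrid site on the other strand, further from the centre and left in lower case.

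The first comparison asked how much of the binding was common to the 2 stages. The 374 shared peaks were 31.8% of the MES list (exact Clopper-Pearson 95% interval 29.1 to 34.5%) and 52.3% of the HB list (48.6 to 56.0%). Intervals of this kind cover counting error only. Where the lists shared a peak, they placed it at nearly the same base. The centres of the 374 pairs lay a median of 15.0 bp apart (quartiles 6.25 and 26.8 bp), and 351 pairs (93.9%) lay within 50 bp. At the C/EBP site in an untranslated exon of Tal1, which encodes a master regulator of blood formation, the 2 peaks had the same centre.

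The exceptions were few. In 2 pairs the centres were more than 200 bp apart. One of these was in Nfil3, a bZIP repressor, where the MES peak lay 641 bp upstream of the TSS with a C/EBP match 4 bp from its centre, and the HB peak lay 272 bp upstream with another match 6 bp from its centre. Near misses were also few, since 2 of the 341 HB only peaks had a MES peak centre within 1 kb, and 11 had one within 10 kb. Few HB only peaks, then, had a MES peak close by.

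The classes differed in where they lay relative to coding genes. Of the shared peaks, 170 (45.5%, 40.3 to 50.7%) had a coding TSS within 2 kb of their centre. The share was 154 of 803 (19.2%, 16.5 to 22.1%) in MES only peaks and 37 of 341 (10.9%, 7.76 to 14.6%) in HB only peaks. All 3 exceed the 3.35% of the genome that lies this close to a coding TSS. The shared class exceeded MES only by 26.3 percentage points (95% Newcombe interval 20.5 to 32.0), and MES only exceeded HB only by 8.33 points (3.78 to 12.4). The direction of the latter turned when the TSSs of all annotated transcripts, tRNA genes included, were used, at 24.7% of MES only and 28.4% of HB only peaks. The median distance to a coding TSS was 4267 bp in shared peaks, 25114 bp in MES only peaks and 26092 bp in HB only peaks.

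**Figure D1:**
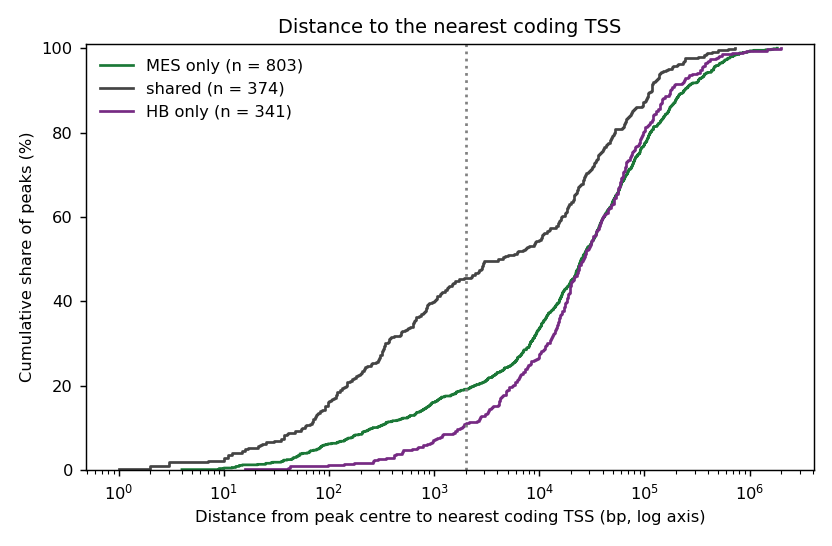
Cumulative share of peaks (vertical axis, %) against the distance from the peak centre to the nearest coding TSS (horizontal log axis, bp), 1 line per class, with the 2 kb window dotted. The shared line stands at 45.5% at 2 kb, the MES only line at 19.2% and the HB only line at 10.9%, and the MES only and HB only lines meet at longer distances. With the TSSs of all annotated transcripts, HB only (28.4%) stands above MES only (24.7%) at 2 kb.

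The contrast was also seen at the TSS itself. Peak centres lay within 100 bp of a coding TSS in 61 shared peaks (16.3%), in 50 MES only peaks (6.23%) and in 4 HB only peaks (1.17%). Beyond 50 kb the order turned, with 20.9% of shared, 36.2% of MES only and 37.0% of HB only peaks. Centres in introns of coding genes made up 30.2% of shared, 39.0% of MES only and 38.1% of HB only peaks. GC content moved with this, at a median of 52.5% in shared peaks and 47.0% in both of the other classes, and its part in the contrast was not tested.

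The search for the C/EBP consensus used the letters TTGCACAA, TTGCATAA, TTGCGCAA and TTGCGTAA on both strands of the whole peak. A match was present in 253 shared peaks (67.6%, 62.6 to 72.4%), in 256 MES only peaks (31.9%, 28.7 to 35.2%) and in 66 HB only peaks (19.4%, 15.3 to 24.0%). In windows of the same length 2 kb to either side it was present in 2.01, 2.86 and 2.79%. Of the 25999 windows of 400 bases centred on coding TSSs, 2.11% held one. MES only peaks exceeded HB only peaks by 12.5 points (7.02 to 17.6), and shared peaks exceeded MES only peaks by 35.8 points (29.9 to 41.3).

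The forms of the site were counted one by one. The palindrome TTGCGCAA, which contains a CpG, was present in 155 shared peaks (41.4%), in 106 MES only peaks (13.2%) and in 37 HB only peaks (10.9%), against 0.242% of the TSS windows. TTGCACAA was present in 14.7, 9.34 and 5.57% of the 3 classes in the same order, TTGCGTAA in 10.4, 6.35 and 2.05%, and TTGCATAA in 3.21, 4.11 and 1.76%. All forms but TTGCATAA were thus most frequent in shared peaks. Matches clustered at the peak centre in every class. Among peaks with a C/EBP match, the nearest one lay a median of 8.00 bp from the centre in shared peaks, 20.0 bp in MES only peaks and 17.0 bp in HB only peaks.

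**Figure D2:**
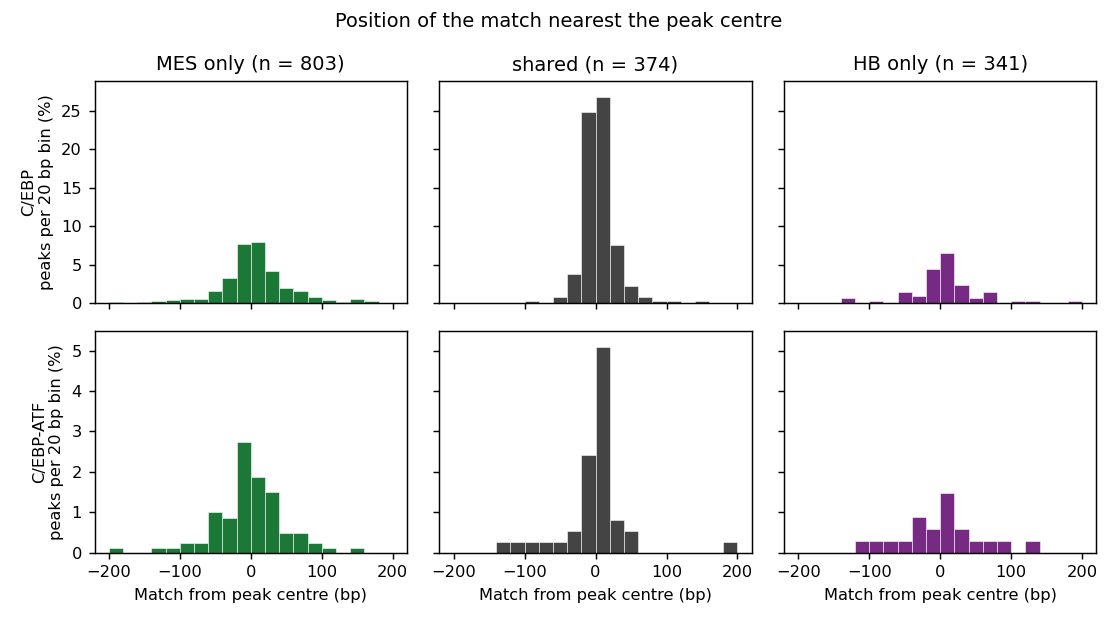
Share of the peaks of a class (vertical axis, % per 20 bp bin) whose nearest C/EBP match (upper row) or hybrid match (lower row) lay at a given distance from the peak centre (horizontal axis, bp), 1 column per class. Matches pile up at the centre in all 3 classes, and 94.9% of the C/EBP matches in shared peaks lie within 50 bp of it, against 78.9% in MES only and 78.8% in HB only peaks.

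The hybrid site (TGATGCAA or TGACGCAA, both strands) was distributed otherwise. It was present in 41 shared peaks (11.0%), 83 MES only peaks (10.3%) and 20 HB only peaks (5.87%), against 1.47, 1.18 and 1.03% in their flanks. Shared and MES only peaks differed by 0.626 points (-2.98 to 4.68), an interval that includes 0. Within 2 kb of a coding TSS it was more frequent in MES only peaks, with 35 of 154 (22.7%), than in shared peaks, with 23 of 170 (13.5%), and shared minus MES only was -9.20 points (-17.6 to -0.811). The C/EBP consensus kept its order there, at 60.0% of shared, 32.5% of MES only and 10.8% of HB only peaks. In TSS windows over all coding genes, 1.46% held a hybrid match.

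Many HB only peaks lay at tRNA genes, which RNA polymerase III transcribes from an internal promoter. A tRNA gene was within 500 bp of the centre in 59 HB only peaks (17.3%, 13.4 to 21.7%), in 9 shared peaks (2.41%) and in 1 MES only peak (0.125%), while 0.0146% of the genome lies this close to one. The 59 peaks were near 79 of the 403 annotated tRNA genes, which carry 19 amino acid products. Of these peaks, 1 held a C/EBP match and 2 held a hybrid match, whereas 46 (78.0%) held the B box GTTCGANNC, the downstream block of the internal promoter. The B box was present in 2 of the other 282 HB only peaks (0.709%). As examples, 2 tRNA genes close to a peak centre, chosen after their values were seen, are printed on the strand of the gene with the B box in capitals, from chr13:23467076-23467165 (n-TYgta8, tyrosine) and chr13:21240945-21241016 (n-TAtgc11, alanine), both on the plus strand.
n-TYgta8: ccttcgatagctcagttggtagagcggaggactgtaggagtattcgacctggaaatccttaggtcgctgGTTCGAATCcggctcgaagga
n-TAtgc11: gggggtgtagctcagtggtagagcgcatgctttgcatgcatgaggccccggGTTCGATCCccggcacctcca
The peak centres lay 1 and 7 bp from the middle of these genes.

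Leaving out the peaks at tRNA genes did not bring the HB only class level with the MES only class. The C/EBP consensus was then present in 65 of 282 HB only peaks (23.0%) and in 31.8% of MES only peaks, a difference of 8.75 points (2.63 to 14.4). A coding TSS within 2 kb was then found for 8.51% of HB only and 19.2% of MES only peaks, a difference of 10.7 points (6.07 to 14.6). For the hybrid site, the difference of 4.47 points between MES only and HB only peaks (0.892 to 7.54) became 3.97 points, with an interval that includes 0 (-0.00959 to 7.22).

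**Figure D3:**
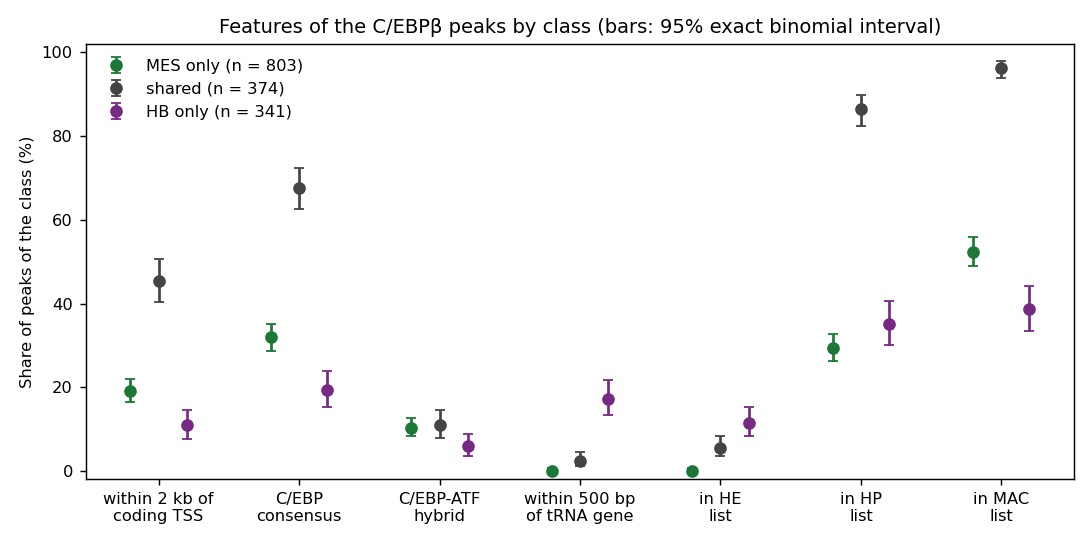
Share of the peaks of each class (vertical axis, %) with each of 7 features (horizontal axis), where points are shares and bars are 95% exact binomial intervals. Shared peaks stand highest for the C/EBP consensus (67.6%) and for overlap with the macrophage list (96.3%), and HB only peaks stand highest for tRNA genes (17.3%).

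The C/EBPβ lists of the later stages were then compared with the classes, to see which places were bound again in the hemogenic endothelium (HE, 132 peaks), in hematopoietic progenitors (HP, 2716 peaks) and in macrophages (MAC, 55471 peaks). Of the shared peaks, 323 (86.4%) overlapped a HP peak and 360 (96.3%) overlapped a MAC peak. Of the MES only peaks, 237 (29.5%) were in the HP list and 421 (52.4%) were in the MAC list. Of the HB only peaks, 120 (35.2%) were in the HP list and 132 (38.7%) in the MAC list. Sites common to MES and HB were thus in the HP list more often than sites of 1 stage, by 56.8 points over MES only (51.8 to 61.2) and 51.2 points over HB only (44.7 to 57.0). The short HE list went the other way for HB only, with 21 shared peaks (5.61%), 1 MES only peak (0.125%) and 39 HB only peaks (11.4%), and shared minus HB only was -5.82 points (-10.1 to -1.74). Without peaks at tRNA genes that difference was 2.85 points (0.499 to 5.34).

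The order of the stage-specific classes in the HP list depended on the tRNA genes and on which lines of the MES list were used. MES only minus HB only was -5.68 points in the HP list (-11.7 to 0.183), and 7.09 points (1.04 to 12.6) once peaks at tRNA genes were left out. With the MES list shortened to its first 715 lines, an alternative chosen after seeing the data, the shares were 41.6% of MES only and 39.7% of HB only peaks. Of the 59 HB only peaks at tRNA genes, 57 (96.6%) were in the HP list and 37 (62.7%) in the HE list, against 63 (22.3%) and 2 (0.709%) of the other 282. Among MES only peaks within 2 kb of a coding TSS, 143 of 154 (92.9%) were in the MAC list, while 42.8% of the distal ones were. The corresponding shares of HB only peaks were 17 of 37 (45.9%) and 37.8%. As a background, MAC peaks overlapped 18.7% of the 400 bp windows at all coding TSSs and HP peaks overlapped 1.85% of them. Flanks 2 kb from the peaks overlapped a MAC peak in 3.57% of cases for proximal and 3.47% for distal MES only peaks. How far the reach of the MAC list at promoters enters the proximal and distal shares was not tested.

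The order of the lines moved with nearly all of these contrasts. What the order means is not given in the sources used here. The MES and HB lists opened with the same peak, 92 bp (MES) and 85 bp (HB) upstream of the TSS of Cotl1, which encodes an actin-binding protein. The first 10 lines of each list were shared peaks with a C/EBP match, other than the fifth line of the MES list, near Sipa1l2. In the first eighth of the MES list 85.7% of peaks were shared and 75.5% held a C/EBP match, and in the last eighth 9.46% and 19.6%. In the HB list the shared percentage was 95.5% in the first eighth and 17.8% in the last, whereas peaks at tRNA genes were 2.25% and 10.0%.

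**Figure D4:**
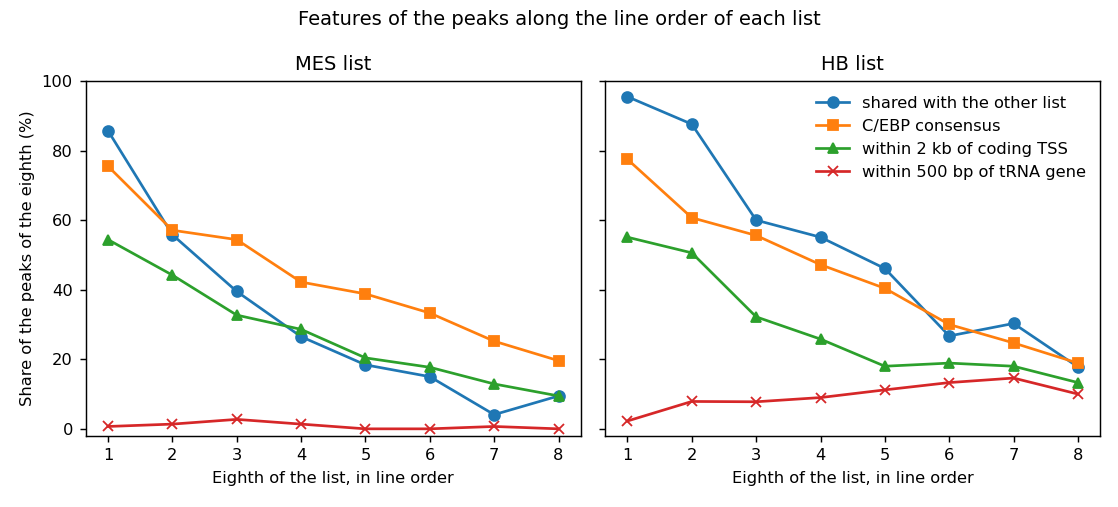
Share of peaks (vertical axis, %) that were shared, held a C/EBP match, lay within 2 kb of a coding TSS or lay within 500 bp of a tRNA gene, in each eighth of the lines of the MES list (left) and the HB list (right). The first 3 measures are highest in the first eighth, with 85.7% of MES and 95.5% of HB peaks shared there, and the tRNA line of the HB list is lowest there at 2.25%.

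The contrast between shared and other peaks was also present within parts of a list. In the first 588 lines of the MES list, a C/EBP match was present in 215 of 305 shared peaks (70.5%, 65.0 to 75.6%) and in 122 of 283 MES only peaks (43.1%, 37.3 to 49.1%). In the later lines it was present in 38 of 69 (55.1%) and 134 of 520 (25.8%). In the first 357 lines of the HB list it was present in 185 of 266 shared (69.5%) and 30 of 91 HB only peaks (33.0%), and in the later lines in 61.1% and 14.4%. Overlap with the MAC list was close to complete for shared peaks in both parts of the MES list (96.1 and 97.1%), while for MES only peaks it was 72.1% in the first lines and 41.7% in the later ones. How far the line order accounts for the contrasts was not tested.

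Peaks were next assigned to the coding gene with the nearest TSS. The MES list named 1090 of 21000 coding genes (5.19%) and the HB list 669 (3.19%). Both lists named 390 genes (1.86%), the MES list alone 700 (3.33%) and the HB list alone 279 (1.33%). The common genes were 35.8% of those of the MES list and 58.3% of those of the HB list, and 363 of the 390 had a shared peak. With a TSS within 2 kb of the peak centre, 322 genes (1.53%) were named by the MES list and 205 (0.976%) by the HB list. Of the 256 genes in 14 lists of pathways, regulators and cell type genes, 48 (18.8%) were named by the MES list and 25 (9.77%) by the HB list, and 37 of them had a peak within 10 kb of the TSS. All 14 lists were written with earlier results of these data known. Their shares and their order are descriptions and give no independent evidence.

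**Figure D5:**
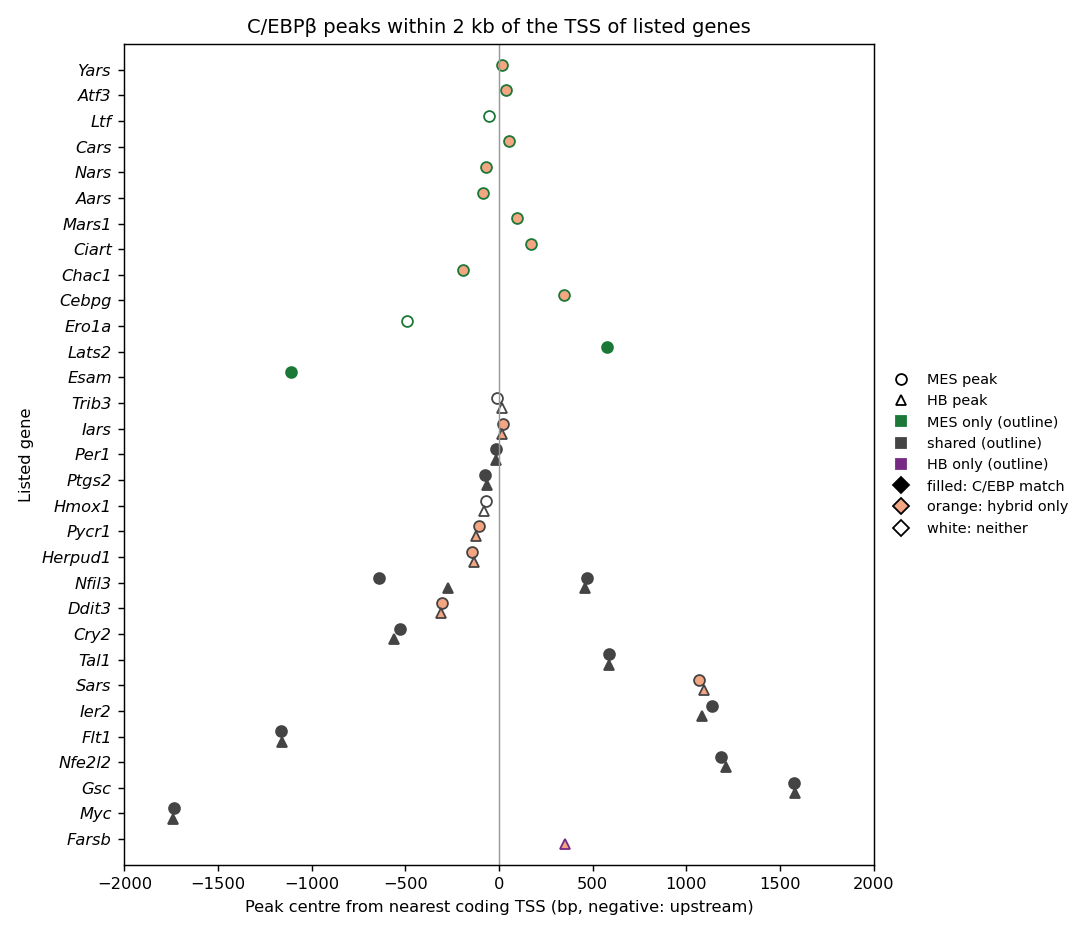
Position of C/EBPβ peak centres relative to the nearest coding TSS (horizontal axis, bp, negative upstream) for the 31 listed genes with a peak within 2 kb (vertical axis), with circles for MES and triangles for HB, outline colour for the class and fill for the match (solid in the class colour for C/EBP, orange for the hybrid alone, white for neither). 13 genes have a MES only peak, 17 a shared peak and 1, Farsb, a HB only peak, and all peaks of synthetase genes are orange.

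The genes of aminoacyl-tRNA synthetases, enzymes that load amino acids onto tRNAs, had the highest share of members with a promoter-proximal MES peak among the 14 lists. Of 20 members, 7 had a MES peak within 2 kb of the TSS (35.0%, against 1.53% of all coding genes) and 3 had a HB peak (15.0%, against 0.976%). Aars, Cars, Mars1, Nars and Yars had MES only peaks, Iars and Sars had shared peaks and Farsb had the HB only peak printed above. The peaks of all 8 genes held the hybrid site in the form TGATGCAA, and none held the C/EBP consensus. The sites of 5 further members, chosen after their values were seen, follow as 40 bases read on the strand where the hybrid stands in this form (in capitals), from chr8:111033714-111033753 (Aars, minus strand), chr7:143600040-143600079 (Cars, plus), chr13:49682121-49682160 (Iars, minus), chr10:127311633-127311672 (Mars1, plus) and chr3:108444185-108444224 (Sars, minus).
Aars: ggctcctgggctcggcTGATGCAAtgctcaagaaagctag
Cars: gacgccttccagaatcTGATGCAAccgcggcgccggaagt
Iars: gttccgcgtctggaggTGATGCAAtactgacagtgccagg
Mars1: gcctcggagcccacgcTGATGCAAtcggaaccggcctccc
Sars: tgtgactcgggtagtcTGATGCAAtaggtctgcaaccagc
The Iars peak, 22 bp downstream of the TSS in MES, stood on line 16 of the MES list and line 27 of the HB list, while Cars, at 53 bp, stood on line 994 of the MES list.

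The other genes of the amino acid stress response gave a mixed picture. Of 33 members, 6 had a MES peak within 2 kb of the TSS (18.2%, against 1.53% of all coding genes) and 3 had a HB peak (9.09%, against 0.976%). Shared peaks lay at Ddit3, which encodes the C/EBP family member CHOP (307 bp upstream of the TSS in MES, 308 bp in HB), at Pycr1, an enzyme of proline synthesis (105 and 122 bp upstream), and at Trib3, a pseudokinase (10 bp upstream and 16 bp downstream). MES only peaks lay at Atf3, a bZIP stress factor (37 bp downstream), at Chac1, which degrades glutathione (192 bp upstream), and at Ero1a, an oxidase of the endoplasmic reticulum (492 bp upstream). Of these 6 genes, 4 held the hybrid in their peak, and Trib3 and Ero1a held neither form. A further shared peak with a hybrid match lay in an intron of Slc7a5, a transporter of large neutral amino acids, 9101 bp from the TSS in MES. The peaks of all 6 promoter-proximal genes were in the HP and MAC lists of C/EBPβ. Of all promoter-proximal peaks, 97.1% of shared and 92.9% of MES only ones were in the MAC list, and 94.1% and 66.2% in the HP list.

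Within the C/EBP family itself, 2 of 7 genes were named, against 5.19% of all coding genes by the MES list and 3.19% by the HB list. Besides Ddit3, Cebpg, which encodes a C/EBP protein that pairs with ATF4, had a MES only peak 349 bp downstream of its TSS with a hybrid match 20 bp from the peak centre, on line 1068 of the list. No peak of either list had Cebpb, Cebpa, Cebpd or Cebpe as its nearest coding gene.

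Of 16 genes of the circadian clock and the PAR bZIP group, 4 had a MES peak within 2 kb (against 1.53% of all coding genes) and 3 had a HB peak (18.8%, against 0.976%). Shared peaks with a C/EBP match lay at Per1 (16 bp upstream in MES, 17 bp in HB), at Cry2 (530 and 563 bp upstream) and at Nfil3. Ciart, a repressor of the clock, had a MES only peak 169 bp downstream of the TSS with a hybrid match. The position of the Per1 peak differed between the lists, at line 150 in MES and line 602 in HB.

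Stress genes outside the amino acid response had both shared and MES only peaks. In the oxidative stress list, 2 of 15 genes were named, both of them by both lists, against 1.86% of all coding genes. Nfe2l2, which encodes the master regulator NRF2, had a peak with a C/EBP match 1184 bp (MES) and 1212 bp (HB) downstream of its TSS, on lines 35 and 24. Hmox1, heme oxygenase, had a shared peak 71 and 79 bp upstream without a match, and a MES only peak 9715 bp upstream. Herpud1, a gene of the unfolded protein response, had a shared peak with a hybrid match (144 and 131 bp upstream), and Ern1, which encodes the stress sensor IRE1, had a MES only peak with a C/EBP match 4709 bp downstream. Edem1, which acts in the disposal of misfolded proteins, had a MES only peak with a hybrid match in its intron, 23702 bp downstream.

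Among regulators of mesoderm, endothelium and blood, promoter-proximal peaks were counted against the 1.53% (MES) and 0.976% (HB) of all coding genes. Of 24 mesoderm regulators, 1 had a peak within 2 kb in either list (4.17%). This was Gsc, goosecoid, with a shared peak in its intron 1575 bp (MES) and 1578 bp (HB) downstream of the TSS and a C/EBP match 7 bp from the MES centre. Lefty2, a NODAL antagonist, had a HB only peak 4206 bp upstream with a hybrid match. T, the gene of the Brachyury reporter, was not the nearest gene of a peak in either list.

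Among 23 endothelial and hemangioblast genes, 3 had a MES peak within 2 kb (13.0%) and 2 a HB peak (8.70%). Flt1, which encodes VEGF receptor 1, had a shared peak 1164 and 1158 bp upstream of its TSS, on lines 42 and 29, and a MES only peak in an intron 91448 bp downstream, both with C/EBP matches within 2 bp of the MES centre. Esam, an endothelial adhesion molecule, had a MES only peak 1112 bp upstream. Tal1 had a shared peak 589 bp downstream of the TSS in both lists. A further shared peak lay 21183 bp (MES) and 21188 bp (HB) upstream, in an intron of Stil. The downstream Tal1 peak was also in the HE, HP and MAC lists.

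The study's 16 network factors were a list chosen by the study on its own samples, and like the other lists give no independent evidence. Of them, 1 (6.25%), Tal1, had a peak within 2 kb in either list. Runx1, the gene of a factor required for definitive blood, had a shared peak in its intron 18289 bp (MES) and 18288 bp (HB) from the nearest coding TSS, with a hybrid match 54 bp from the MES centre. Gfi1, a repressor of the endothelial programme, had a shared peak 33540 and 33406 bp upstream in an intron of Evi5, without a match. Esrrb, a pluripotency factor, had a HB only peak with a C/EBP match in its intron, 32172 bp downstream. Fli1 and Meis1 had MES only peaks 69016 bp downstream and 122392 bp upstream, without a match and in none of the later lists. Zfp42, the other pluripotency gene with a peak, had a MES only peak 109080 bp upstream with a hybrid match.

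Of 20 immediate early genes, 2 had peaks within 2 kb, both shared. This was 10.0% in either list, against 1.53% (MES) and 0.976% (HB) of all coding genes. They were Myc, with a peak 1733 and 1740 bp upstream, and Ier2, with a peak 1137 and 1085 bp downstream that held both a C/EBP and a hybrid match. Fosl2, a subunit of AP-1, had a MES only peak with a C/EBP match 3136 bp downstream. Among autophagy genes, Atg7 had a shared peak 7677 and 7687 bp downstream, and Map1lc3b, which encodes LC3B, had a MES only peak 5004 bp upstream, both without a match. Of 20 genes in the macrophage list, 2 had a MES peak within 2 kb (10.0%, against 1.53% of all coding genes). A HB peak was this close in 1 (5.00%, against 0.976%). Ptgs2, which encodes cyclooxygenase 2, had a shared peak 75 and 64 bp upstream with a C/EBP match, on lines 28 and 45. Ltf, which encodes lactoferrin, had a MES only peak 51 bp upstream without a match. Ccl2 and Csf1r had MES only peaks 28602 and 28221 bp upstream, with a C/EBP match at Ccl2 and none at Csf1r. Lats2, a kinase of the Hippo pathway, had the MES only peak printed above, 578 bp downstream of its TSS.

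The genes with most peaks over both lists were of different kinds. Klf3, which encodes a repressor of the KLF family, had 6 peaks, of which 2 in each list were shared, and all 6 lay in HP and MAC peaks. S1pr1, a sphingosine 1-phosphate receptor, had 5, with 2 shared pairs that held C/EBP matches and 1 HB only peak. Sfi1 had 5 as well, but its 2 MES and 3 HB peaks did not overlap, held no C/EBP or hybrid match and were in none of the later lists. All 5 Sfi1 peaks lay in its introns, 15426 to 42337 bp from the TSS. At 4 peaks 21 genes were tied, of which the first in alphabetical order were Abt1 and Cdkl4. Every Abt1 peak, 1 in MES and 3 in HB, was within 500 bp of a tRNA gene, and the 4 Cdkl4 peaks were 2 shared pairs.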

How the data were processed

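The authors aligned reads to mm10 with Bowtie and listed bedtools in their processing notes (versions not given in the sources used here). Peaks were called with MACS against input at the same threshold for both lists, and given a common width around the summit. The MES library combined several sequencing runs, and the paper gives no such mark for the HB library. The contrasts of MES only and HB only peaks thus set a merged library against one not marked as merged. The deposited values are peak start and end positions, with no score, signal or depth, so that list length depends on depth and threshold as well as on binding. Positions lay within GRCm38 chromosomes. Distances ran from the peak centre to the TSS of RefSeq coding mRNAs (25999 TSSs of 21000 genes, GRCm38.p6). Sequences are from the same RefSeq assembly. Python 3.11.15, NumPy 2.4.6, SciPy 1.17.1 and Matplotlib 3.10.9 were used. Overlap, motif, distance and interval code was tested on simulated data. Shares carry Clopper-Pearson and differences Newcombe 95% intervals, and no test was run, since each group held 1 list. Shared peaks are described by their MES peak. Named genes were list members with a peak within 10 kb of the TSS, the 5 genes with most peaks, and genes of printed sequences, and some members further away are named for their role. Of 256 listed symbols, 4 were matched through RefSeq synonyms. Peaks, gene lists and motifs were chosen with earlier results of these data known.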

Additional observations from a re-analysis of the deposited data

How the results depend on the processing

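Of 120 values recomputed for 26 results, 88 stayed within the 95% interval of the value reported (for counts, within 1.5 times of it). Without peaks within 500 bp of a tRNA gene, 56.4% of the HB list was shared and 22.3% of HB only peaks were in the HP list, now below the 29.4% of MES only peaks. With a window of 1 kb, the promoter-proximal share of MES only, shared and HB only peaks was 16.1, 40.1 and 7.04%, with 5 kb 24.3, 50.8 and 19.1%, and with the TSSs of all annotated transcripts, tRNA genes included, 24.7, 52.7 and 28.4%, where HB only passed MES only. In the central 100 bp, the C/EBP consensus was present in 24.7% of MES only and 14.7% of HB only peaks, and the hybrid in 7.60% of MES only peaks. In distal peaks, the consensus was present in 74.0% of shared and the hybrid in 7.40% of MES only peaks. In promoter-proximal peaks, the consensus was present in 60.0% of shared and 10.8% of HB only peaks, and the hybrid in 22.7% of MES only and 13.5% of HB only peaks. With TSSs within 10 kb of the centre, 463 MES, 295 HB and 203 common genes were assigned. With the MES list shortened to its first 715 lines, an alternative chosen after seeing the data, 46.2% of each list was shared, and of the MES only peaks 28.8% were promoter-proximal, 41.8% held the consensus, 12.7% held the hybrid, 0% were at a tRNA gene, 41.6% were in the HP list (HB only 39.7%, so that the order turned) and 69.4% in the MAC list, as were 45.2% of HB only peaks. An overlap of 200 bp, centres within 1 kb, leaving out regions bound in at least 8 lists and merging moved no value out of its interval. No paired analysis was possible because each group held 1 list. Read depth was not used.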

Other observations

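Sequences of other factors were searched in the same peaks and flanks. The octamer ATGCAAAT, the site of POU factors such as OCT4, was present in 37 MES only peaks (4.61%), 6 shared peaks (1.60%) and 7 HB only peaks (2.05%), against 2.30, 1.87 and 1.91% of their flanks. In distal peaks the difference between MES only and HB only was 3.57 points (0.849 to 5.87), at 5.55 and 1.97%. The KLF and SP site GGGCGG was present in 38.0% of shared, 17.2% of MES only and 10.3% of HB only peaks. Their flanks held it in 8.16, 7.04 and 6.01%, and TSS windows over all coding genes in 53.1%. In distal peaks it was present in 18.1, 8.47 and 7.24%. How far the promoter share of the classes enters this order was not tested. For AP-1 (TGANTCA) the peak minus flank differences were -0.498 points in MES only, -0.802 in shared and 0.587 in HB only peaks, each with an interval that includes 0. GATA sites (AGATAA) were present in fewer peaks than flanks in the HB only class (17.9 and 23.8%) and in the shared class (15.2 and 20.3%, difference -5.08 points, -9.55 to -0.243).

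Lists of other factors at the same stages held few of these peaks. The ELK4 list of MES (524 peaks) overlapped 4 MES only (0.498%) and 6 shared peaks (1.60%) and 0 of the 341 HB only peaks. The GATA2 list of HB (97 peaks) overlapped 1 (0.125%), 2 (0.535%) and 1 (0.293%) in the same order. Both lists were short, and their reach over flanks or TSS windows was not computed, so these counts have no background. The PU.1 list of macrophages overlapped 39.8% of shared, 16.9% of MES only and 15.5% of HB only peaks. For promoter-proximal peaks of the 3 classes the share was 53.5, 43.5 and 32.4%, against 31.3% of the 400 bp windows at all coding TSSs. For distal peaks it was 28.4, 10.6 and 13.5%, against 5.88, 6.16 and 5.26% of their flanks. Over the 374 shared pairs, line numbers in the MES and HB lists had a Spearman rho of 0.479, as a description of pairs that come from 1 library each.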
